A study of Mus musculus with 96 samples.

Results

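Proteasome genes were taken by name, as every gene of the expression table whose symbol begins with Psma, Psmb, Psmc, Psmd or Psme followed by a digit. That gave 45 of 23955 genes. Of these, 36 encode subunits of the 26S proteasome, 19 in its core particle and 17 in its regulatory particle. The others are 3 chaperones of base assembly (Psmd5, Psmd9, Psmd10), 5 genes of separate activators (Psme1, Psme2, Psme2b, Psme3, Psme4) and Psmc3ip, a meiotic recombination factor that matches by name and is not a subunit. They were measured in 96 single bone marrow cells of C57BL/6 mice, all of the genotype ThPOK-/- and labelled granulocyte-monocyte progenitors (GMP), the cells from which neutrophils and monocytes arise. The marrow was enriched on CD117 beads and sorted by flow cytometry, and the cells were captured on a Fluidigm C1 chip. ThPOK is the transcription factor encoded by Zbtb7b. No animal is named, so the 96 cells count as 1 sample, no test across cells was made, and no other genotype was compared. The authors' state names divide them into 26 cells of Multi-Lin-1, 31 of IG2 and 12 of proNeu-1, and 27 cells have no state. The sources used here do not say how the states were assigned. They may rest on the same expression values, so each difference between states is a description.

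The proteasome breaks down proteins that carry ubiquitin chains. Its core is a barrel of alpha and beta rings in which a few beta subunits cut peptide bonds, and the regulatory particle at its ends binds, unfolds and threads the substrate, with a base of ATPases and a lid that removes ubiquitin. In blood cells and after interferon, Psmb8, Psmb9 and Psmb10 can take the places of Psmb5, Psmb6 and Psmb7 in newly built cores. The resulting immunoproteasome is known for cutting peptides that suit presentation on MHC class I.

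Values are log2(TPM + 1), where TPM is transcript abundance scaled for length and to a fixed sum per cell. Detection means a TPM of at least 1. Depth in reads is unknown, and the number of genes detected stands in for it. Its median was 2950 in Multi-Lin-1, 3940 in IG2, 4127.5 in proNeu-1 and 2613 among cells without a state. These cells also differed in markers. All 8 GMP markers were detected in at least 50% of the 96 cells, but their summed TPM had a median of 1882 in Multi-Lin-1, 38957 in IG2, 72808 in proNeu-1 and 1563 among cells without a state. The summed TPM of 8 mast cell and basophil genes ran from 0 to 9026 in Multi-Lin-1, from 21.5 to 6275 in IG2, from 23.3 to 1355 in proNeu-1 and from 0.58 to 78857 among cells without a state. For 9 erythroid and megakaryocyte genes the ranges were 0.50 to 5676, 0 to 1243, 0 to 163 and 0 to 17054. Among B cell genes, Cd79a, Ebf1 and Pax5 were not detected in any cell, while Cd79b was detected in 26.04% of cells and Vpreb1 in 4.17%. Among T and NK cell genes, Cd3e, Cd3g and Klrb1c were not detected in any cell and Cd3d in 8.33% of cells, while Nkg7 was detected in 96.9% at a mean TPM of 2635. Zbtb7b reached a TPM of 1 in 2 of 96 cells and had a highest TPM of 2.12. The labels do not say which part of the gene was deleted. The part that depth or these other cell programs play in the results was not tested.

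The proteasome genes were among the more abundant of these cells. By mean TPM over the 96 cells, Psmb3, a structural beta subunit, stood first among the members at 817, followed by the alpha subunits Psma7 at 792 and Psma6 at 701. Psmb8 came next at 683. These lay above the 99th percentile of the 23955 genes. The 26S genes together held 1.19 ± 0.371% of the summed TPM (mean ± SD over 96 cells), and 32 of the 36 were detected in at least 50% of cells, against 9.48% of all genes. Psma8, the germ cell alpha subunit, was detected in 0 of 96 cells. The upper limit of the exact Clopper-Pearson interval was 3.77% of such cells holding it at a TPM of 1. Psmb11, the thymus subunit, was detected in 3 of 96 cells. Apart from these 2, the subunits seen least often were the lid genes Psmd3 in 37.5% and Psmd13 in 40.6% of cells.

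Among the members, the core was represented by more RNA than the regulatory particle. Mean summed TPM was 8347 ± 2815 for the core and 3580 ± 2435 for the regulatory particle (SD over 96 cells). The medians were 8327 and 3426, and the regulatory mean includes the single cell described below. These sums leave out 26S components with other names, such as Shfm1 at a mean TPM of 902 and Adrm1 at 126. The median mean TPM of a gene was 516 over the 8 genes of the alpha ring, which forms the gate of the barrel, with the undetected Psma8 included. It was 555 among the structural beta genes. It was 231 among the base ATPases, 144 among the other base subunits and 174 in the lid. Within a role, levels per length were far from equal. The structural beta genes spanned a 4.38-fold range, from Psmb4 at 187 to Psmb3 at 817. The ATPases, which form a single ring with 1 copy of each, spanned a 2.34-fold range, from Psmc6 at 144 to Psmc4 at 337. The lid genes among the members, which do not include Shfm1, spanned 7.87-fold, from Psmd3 at 42.7 to Psmd7 at 336. Psmb5, Psmb6 and Psmb7 have named processed pseudogenes in the annotation (Psmb5-ps, Psmb6-ps, Psmb6-ps2, Psmb7-ps2), and Psme2b is a near copy of Psme2, so the division of reads among these copies is uncertain.

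A single cell stood apart in the regulatory particle. It has no state and 1019 genes detected, the fewest of all cells. Psmd4, the ubiquitin receptor of the base, was at a TPM of 21210 in it, and the summed TPM of the regulatory particle was 21349. The next highest cell had Psmd4 at 2092. Without that cell the mean TPM of Psmd4 over the other 95 cells was 262 in place of 480, and the 26S share in cells without a state was 1.04 ± 0.408% (SD, n = 26 cells) in place of 1.08 ± 0.456% (SD, n = 27 cells). At the other end, a cell without a state had 7 subunits detected, 1539 genes detected and 0.0146% of its TPM in 26S genes.

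**Figure D1:**
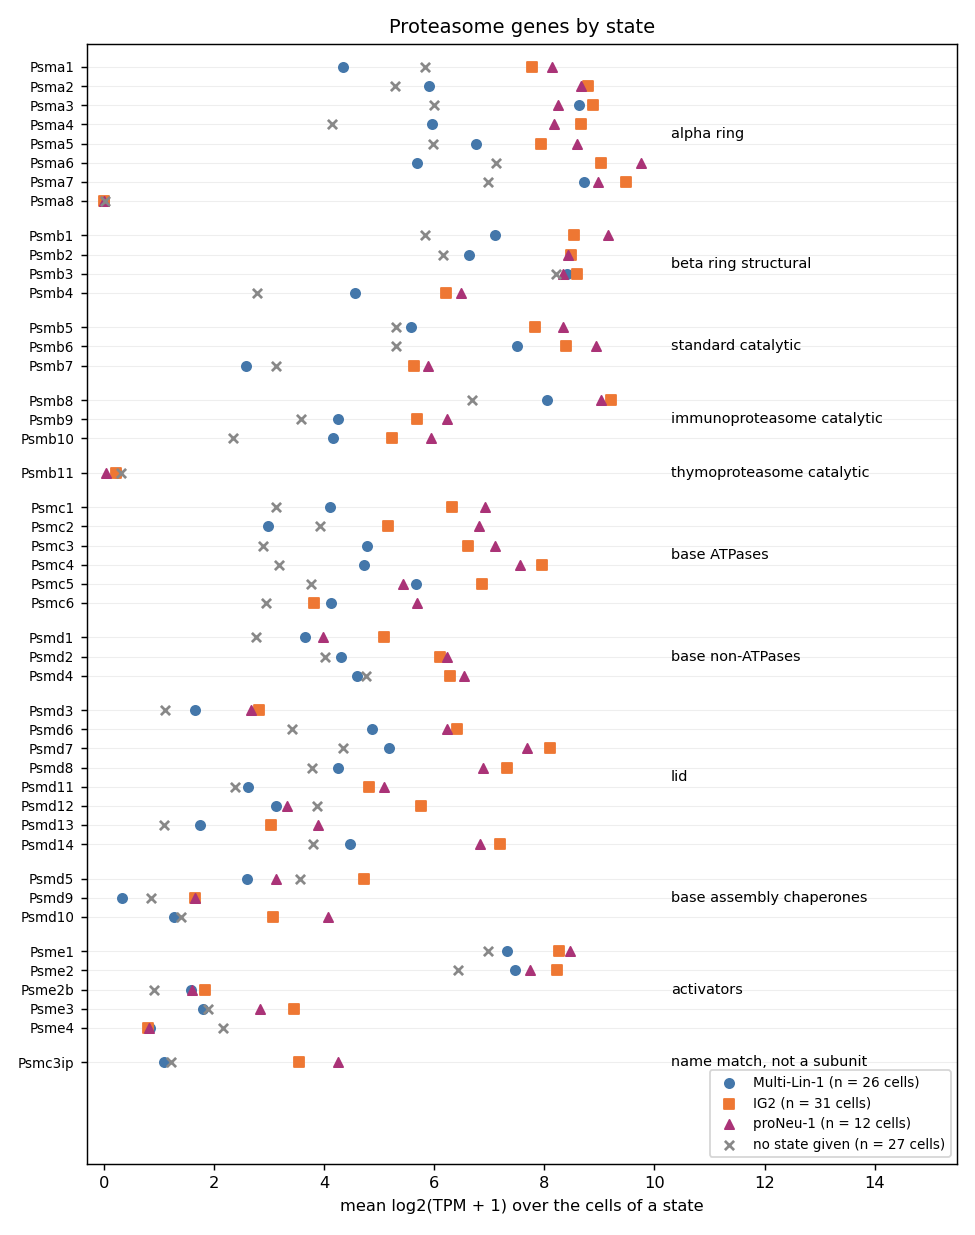
Mean log2(TPM + 1) of each proteasome gene over the cells of each state, with genes grouped by role on the vertical axis. Most genes sit further right in IG2 and proNeu-1 than in Multi-Lin-1, while Psmb3 has nearly the same mean in all 4 sets of cells (8.22 to 8.59) and Psma8 and Psmb11 lie near 0.

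Most proteasome genes were detected more evenly in IG2 and proNeu-1 cells than in Multi-Lin-1 cells. Of the 36 genes, 29 were detected in at least 50% of Multi-Lin-1 cells, 34 of IG2, 32 of proNeu-1 and 25 of cells without a state, with 8.29%, 12.8%, 15.8% and 6.57% of all genes. The 26S genes detected per cell numbered 23.1 ± 6.43 in Multi-Lin-1, 30.03 ± 3.10 in IG2, 30.2 ± 3.01 in proNeu-1 and 20.1 ± 6.35 among cells without a state (mean ± SD over cells). All 7 alpha genes other than Psma8 were detected together in 8 of 26 Multi-Lin-1 cells (30.8%, exact Clopper-Pearson interval 14.3 to 51.8%), in 28 of 31 IG2 cells (90.3%, 74.2 to 98.0%) and in 12 of 12 proNeu-1 cells. The count was 6 of 27 for cells without a state. All 6 ATPases were detected together in 4 of 26, 15 of 31, 6 of 12 and 1 of 27 cells. The intervals cover the counting of cells in this 1 sample only. Across the 96 cells the number of 26S genes detected followed the number of all genes detected (Spearman's rho = 0.894, Pearson's r = 0.877), and the relation was present within Multi-Lin-1 (rho = 0.794, 26 cells) and within IG2 (rho = 0.768, 31 cells). Both counts come from the same library of each cell.

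As a share of the transcriptome the states were closer together. The 26S genes held 1.14 ± 0.427% of summed TPM in Multi-Lin-1, 1.33 ± 0.236% in IG2, 1.21 ± 0.188% in proNeu-1 and 1.08 ± 0.456% among cells without a state. These means differed by less than the SD over Multi-Lin-1 cells. IG2 and cells without a state differed by more than the SD over IG2 cells. An SD over cells is the spread of single cells and does not measure the uncertainty of a mean. In Multi-Lin-1 the single cells ran from 0.395% to 1.86%, and the lowest IG2 cell was at 0.962%.

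**Figure D2:**
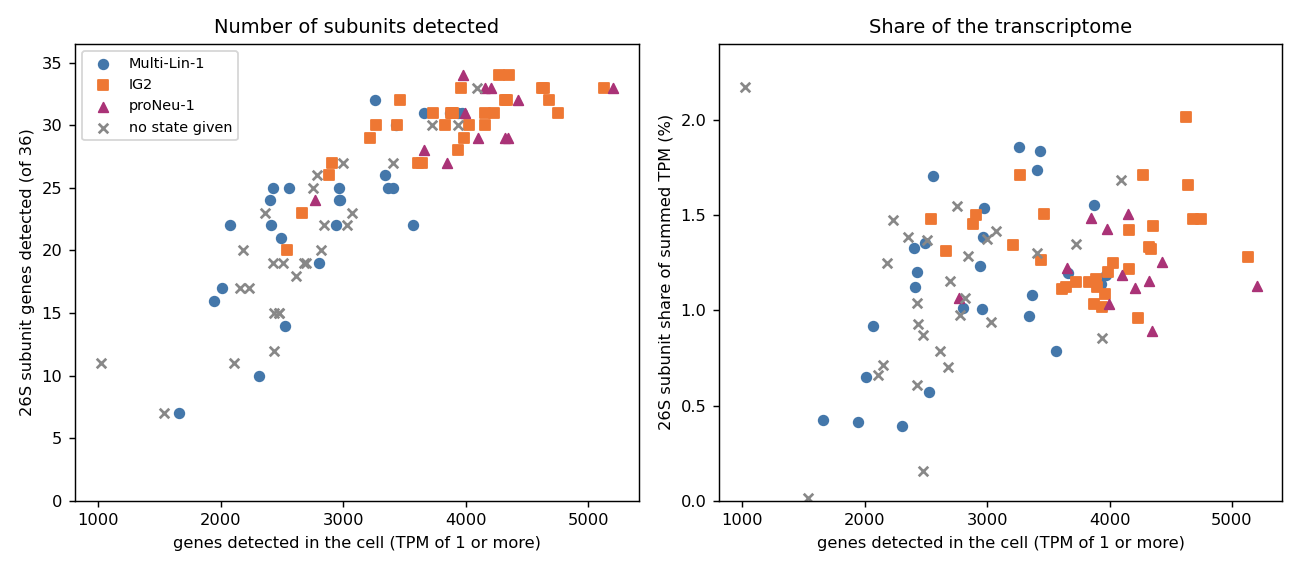
Each point is 1 of 96 cells, placed by its number of genes detected, with the number of 26S subunit genes detected (left) and the percent of summed TPM in 26S genes (right). The subunit count climbs with genes detected (rho = 0.894), whereas the share is related to it less closely (rho = 0.313), and the cell at the upper left of the right panel is the one with Psmd4 at a TPM of 21210.

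IG2 cells had higher mean log2 values than Multi-Lin-1 cells for nearly all members. Of the 43 members detected in at least 10% of cells, 34 were higher in IG2 by at least 1 log2 unit and 0 were lower by as much, while 31.1% of all 8044 such genes were higher and 2.54% lower. The median difference was 1.75 log2 units over the 34 such 26S genes and 0.53 over all genes. Against the 2270 genes detected in at least 50% of cells, a comparison chosen after the data were seen, 28 of 35 members were higher by 1 unit and 0 lower, with 49.3% and 3.04% of those genes. On the log2 of the mean TPM, which is set by the cells with most RNA of a gene, 9 of 43 members were higher and 0 lower, with 25.9% of all genes higher and 18.4% lower, and the 26S median was 0.25. After regression of each gene on genes detected, 5 were higher and 2 lower, with 6.91% and 5.56% of all genes, and the median was 0.15. Genes detected ran from 1660 to 3973 in Multi-Lin-1 cells and from 2540 to 5133 in IG2 cells, so depth and state cannot be told apart in full. Among cells with at least 2500 genes detected, 25 members were higher by 1 unit and the 26S median was 1.15, while 23.6% of all genes were higher and their median was 0.31.

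Both the share of cells and the level where detected differed. Between Multi-Lin-1 and IG2 the share of cells with a 26S gene was higher in IG2 by a median of 22.4 percentage points, against 14.02 points for the genes detected in at least 50% of cells. In the cells that had the gene, the median difference in mean log2 was 0.44 for 26S genes and 0.11 for those other genes. It was positive for 27 of 34 26S genes. The matching share of all genes was not computed, so this count is not read as particular to them.

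On mean log2 the alpha ring held the members with the largest difference between IG2 and Multi-Lin-1, Psma1 and Psma6. On the log2 of mean TPM the largest were Psmd9 (3.63), Psmd10 (1.95) and Psme3 (1.93). Psma1 had a lowest, median and highest log2 value of 0, 2.67 and 11.22 in Multi-Lin-1, of 1.21, 8.89 and 10.48 in IG2, of 4.75, 8.34 and 10.09 in proNeu-1 and of 0, 7.13 and 11.31 among cells without a state. The ranges overlapped, and the difference lay in the many low Multi-Lin-1 cells, since Psma1 was detected in 15 of 26 of them and in 31 of 31 IG2 cells. Its mean log2 was 3.42 higher in IG2, and its log2 mean TPM 0.63 higher. Psma6 ran through 0, 7.09 and 10.44 in Multi-Lin-1, 2.58, 9.37 and 11.46 in IG2, and 8.01, 9.69 and 11.24 in proNeu-1. Unlike Psma1, it was also past 1 log2 unit on the log2 of mean TPM, with 352 TPM in Multi-Lin-1, 802 in IG2 and 1091 in proNeu-1. Psma3 and Psma7, by contrast, differed between IG2 and Multi-Lin-1 by only 0.25 and 0.76. Of the 7 alpha genes, 5 were higher by 1 unit, a mark passed by 31.1% of all genes and by 49.3% of those detected in at least 50% of cells. The median difference of the 7 was 2.69, or 0.47 on the log2 of mean TPM.

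Among the structural beta genes, Psmb3 differed least. Its lowest, median and highest values were 0, 9.59 and 11.56 in Multi-Lin-1, 0, 9.66 and 10.79 in IG2, 0.94, 9.09 and 10.61 in proNeu-1 and 0, 9.09 and 11.95 among cells without a state. The 4 sets of cells overlapped over nearly their whole range. Psmb1, Psmb2 and Psmb4 were higher in IG2 than in Multi-Lin-1 by 1.43, 1.85 and 1.65, and by 0.00, 0.60 and 0.78 on the log2 of mean TPM.

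Among the members in the regulatory particle, 5 of 6 ATPases, all 3 other base genes and all 8 lid genes were higher in IG2 than in Multi-Lin-1 by 1 unit. The same mark was passed by 31.1% of all genes and 49.3% of those detected in at least 50% of cells. Shfm1 and Adrm1, 26S components outside the members, were higher by less, 0.89 and 0.58. Psmc4, an ATPase, ran through 0, 3.82 and 9.90 in Multi-Lin-1, 0.56, 8.71 and 11.35 in IG2, 3.84, 7.38 and 9.83 in proNeu-1 and 0, 0 and 10.56 among cells without a state. Most cells without a state thus had none listed, while the highest of them lay above the IG2 median. Psmc6 was the exception among the ATPases, with mean log2 values of 4.12 in Multi-Lin-1, 3.82 in IG2 and 5.69 in proNeu-1. Psmd14, the enzyme that removes ubiquitin chains, was at 4.48, 7.20 and 6.84, and Psmd7, its partner in the lid, at 5.18, 8.10 and 7.69. On the log2 of mean TPM the 8 lid genes had a median difference of 0.19 between IG2 and Multi-Lin-1, and 2 of them, Psmd11 and Psmd12, were higher by 1 unit, a share near the 25.9% of all genes that were.

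**Figure D3:**
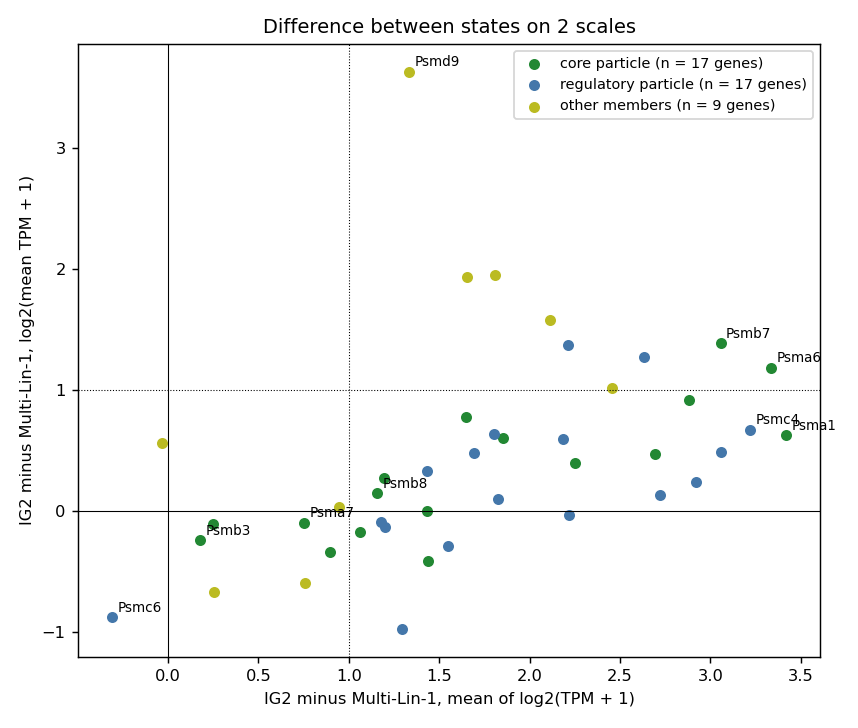
Each point is 1 of 43 proteasome genes, placed by its IG2 minus Multi-Lin-1 difference in the mean of log2(TPM + 1) (horizontal) and in log2(mean TPM + 1) (vertical), with dotted lines at 1 log2 unit. To the right of the vertical dotted line lie 34 genes and above the horizontal one 9, and Psmd9 stands highest on the vertical axis at 3.63.

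The proNeu-1 cells differed little from IG2. Of 43 members, 2 were higher by at least 1 log2 unit (13.6% of all genes) and 4 lower (10.2% of all genes), and the 26S median was 0.18. The higher members were the ATPases Psmc6 (1.88) and Psmc2 (1.65). The lower ones were the lid gene Psmd12 (-2.43), the chaperone Psmd5 (-1.59), the ATPase Psmc5 (-1.44) and the base scaffold Psmd1 (-1.12). Psmd12 was detected in 26 of 31 IG2 cells and 5 of 12 proNeu-1 cells. On the log2 of mean TPM, 1 member was higher (13.6% of all genes) and 3 were lower (26.1% of all genes), and Psmd12 was at -0.86. With 12 cells in proNeu-1, single genes were not stable. Within cells numbered 078 the members past 1 unit either way were 16 in place of 6, and within those numbered 079 they were 15. The share of all genes past 1 unit either way was 36.49% within 078 and 37.73% within 079, so these members' counts were near the background. These numbers are part of the cell names, hold 48 cells each, and their meaning is not given.

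Against Multi-Lin-1, 32 of 43 members were higher in proNeu-1 by 1 unit (35.2% of all genes) and 0 lower (5% of all genes), with a 26S median of 1.95. Among the 2270 genes detected in at least 50% of cells, 26 of 35 members were higher and 0 lower, with 50.7% of those genes higher. On the log2 of mean TPM 7 of 43 members were higher (23.6% of all genes) and 2 lower (28.5% of all genes), and the 26S median was 0.08. After regression on genes detected 3 were higher (12.6% of all genes) and 7 lower (12.7% of all genes), and the median turned to -0.14. Psma6 was on the same side in all 3 measures, with 4.06, 1.63 and, after regression, 1.89.

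Cells without a state had lower values than Multi-Lin-1 for more members than the reverse. Of 43 members, 14 were lower by 1 unit (12% of all genes) and 3 higher (5.21% of all genes), with a 26S median of -0.72. The lowest were Psma3 (-2.63), Psmb6 (-2.20), Psmc3 (-1.89) and Psmc5 (-1.89), and the higher ones were Psma1 (1.49), Psma6 (1.43) and the activator Psme4 (1.32). Psma3 was detected in 26 of 26 Multi-Lin-1 cells and in 20 of 27 cells without a state. On the log2 of mean TPM 10 members were higher (24% of all genes) and 6 lower (25.8% of all genes), and the 26S median was -0.34. Psmd4 counts among the higher ones at 2.64 on that scale, where it was 1118 TPM with the cell described above and 346 TPM without it. Within cells numbered 078, 22 members were lower by 1 unit (20.4% of all genes), and within those numbered 079, 15 were (17.1% of all genes). Among genes detected in at least 50% of cells, 14 of 35 members were lower and 2 higher, with 22.7% of those genes lower. After regression on genes detected 11 of 43 members were lower (8.29% of all genes) and 7 higher, and the 26S median was -0.35. Among cells with at least 2500 genes detected it was -0.24, against -0.10 for all genes.

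The catalytic genes of the standard and the immunoproteasome were present at like levels. Summed over the 3 genes, mean TPM was 1114 for Psmb8, Psmb9 and Psmb10 and 1146 for Psmb5, Psmb6 and Psmb7, so that the immunoproteasome genes held 49.3% of the pooled TPM of the 6 genes. The share was 50.5% in Multi-Lin-1, 47.7% in IG2, 39.96% in proNeu-1 and 55.3% among cells without a state. Per cell, the log2 ratio of the sums, immunoproteasome over standard, was 0.51 ± 2.33 in Multi-Lin-1, 0.06 ± 1.35 in IG2, -0.48 ± 0.72 in proNeu-1 and 0.34 ± 4.48 among cells without a state (mean ± SD over cells). The differences between these means were smaller than the SD in Multi-Lin-1, which is a spread of single cells. That between Multi-Lin-1 and proNeu-1 was larger than the SD in proNeu-1. Among cells with at least 2500 genes detected the ratio was below 0 in Multi-Lin-1 (-0.05) and in those without a state (-0.995). Over all cells the immunoproteasome sum was the larger one in 13 of 26, 17 of 31, 4 of 12 and 13 of 27 cells. Between the label numbers the pooled share moved about as far as between states, from 52.4% in 078 to 43.3% in 079 within IG2 and from 46.7% to 33.5% within proNeu-1.

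**Figure D4:**
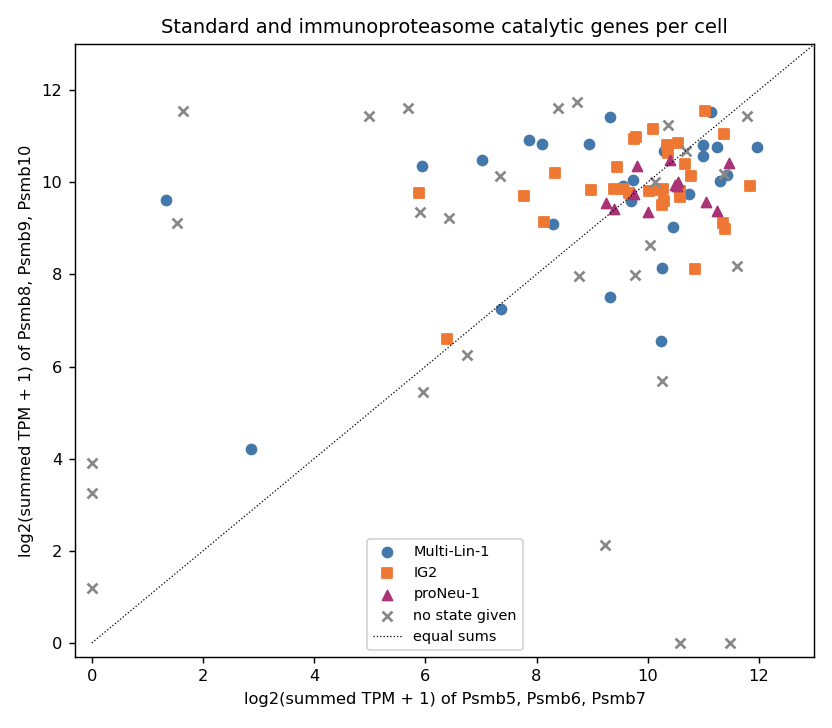
Each point is 1 of 96 cells, placed by log2 of the summed TPM + 1 of Psmb5, Psmb6 and Psmb7 (horizontal) and of Psmb8, Psmb9 and Psmb10 (vertical), with the dotted line at equal sums. In 47 of the 96 cells the immunoproteasome sum is the larger one, and the proNeu-1 cells form the tightest group (SD of the log2 ratio 0.72).

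Psmb8 was the leading catalytic gene by mean TPM over the 96 cells, at 683 against 537 for Psmb6. By state, Psmb6 had the higher mean TPM in Multi-Lin-1 (683 against 673) and in proNeu-1 (681 against 577). Psmb8 is the immunoproteasome's chymotrypsin-like subunit and takes the place of Psmb5. Its lowest, median and highest values were 0, 9.09 and 10.91 in Multi-Lin-1, 6.59, 9.36 and 11.41 in IG2, 7.91, 9.24 and 10.08 in proNeu-1 and 0, 8.02 and 11.52 among cells without a state. Its median was thus near 9 in each state, and the low cells had no state or were of Multi-Lin-1. Psmb5 ran through 0, 6.23 and 10.74, then 1.01, 8.40 and 11.26, then 4.83, 8.58 and 9.97, and 0, 5.96 and 11.24 in the same order. Psmb8 was above Psmb5 in 61 of 96 cells and held 61.4% of the pair's pooled TPM. Both were detected in 17 of 26 Multi-Lin-1 cells, 31 of 31 IG2 cells, 12 of 12 proNeu-1 cells and 18 of 27 cells without a state. In 7 Multi-Lin-1 cells Psmb8 was detected without Psmb5, and in 1 the reverse.

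The pair of Psmb9 and Psmb6, the caspase-like site, leaned to the standard gene. Psmb6 was detected in 91.7% of cells and Psmb9, which lacks that caspase-like activity, in 64.6%. Psmb9 held 34.02% of the pair's pooled TPM, and it was above Psmb6 in 9 of 26 Multi-Lin-1 cells, 6 of 31 IG2 cells, 0 of 12 proNeu-1 cells and 6 of 27 cells without a state. Psmb9 ran through 0, 3.28 and 10.71 in Multi-Lin-1, 0, 7.14 and 10.85 in IG2, 0, 7.35 and 9.13 in proNeu-1 and 0, 0 and 11.60 among cells without a state. Single cells thus ran from none to above 9 in every state. Psmb6 ran through 0.79, 8.39 and 11.57, then 3.03, 8.56 and 11.06, then 4.97, 9.31 and 10.41, and 0, 5.62 and 10.73.

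Psmb10 and Psmb7, the trypsin-like site, were the least abundant pair. Their mean TPM was 154 and 179 and they were detected in 63.5% and 62.5% of cells. Psmb10 held 46.3% of the pair's pooled TPM, 71.6% in Multi-Lin-1, 45.9% in IG2, 37.1% in proNeu-1 and 33.3% among cells without a state. Psmb7 had the wider difference between states, with mean TPM of 72.8 in Multi-Lin-1, 192 in IG2, 281 in proNeu-1 and 221 among cells without a state, whereas Psmb10 was at 183, 163, 166 and 110. Within proNeu-1 the Psmb10 share was 75.6% in cells numbered 078 and 21.8% in those numbered 079, with 6 cells each, so that the difference between label numbers was wider than that between states.

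Of the catalytic genes, Psmb8 and Psmb9 are neighbours in the genome. On GRCm38, in the GENCODE annotation, Psmb8 spans chr17:34197721-34201454 and Psmb9 chr17:34181987-34187764, in the MHC class II region. Across the 96 cells these neighbours had a rho of 0.05, and Psmb8 had 0.35 with Psmb6, which is on chromosome 11. The 3 immunoproteasome genes had a median rho of 0.07 among themselves, and the 3 standard genes 0.31. Psmb5 with Psmb6 had a rho of 0.32, Psmb6 with Psmb7 0.31 and Psmb5 with Psmb7 0.12. After regression on genes detected these were 0.15, 0.10 and -0.14. The median was then 0.10 for the standard and 0.04 for the immunoproteasome genes. In that order it was -0.05 and -0.03 within IG2, 0.16 and -0.25 within Multi-Lin-1 and 0.14 and -0.21 within proNeu-1. Among cells without a state it was 0.40 and 0.22. Each median rests on 3 pairs. Whether upstream sequence bears on these values was not tested. The core letters of the antioxidant response element are TGACNNNGC. Psmb5 and Psmb6 are 2 of 5 member genes that hold them, on either strand, in the 250 bases upstream of the RefSeq start. The others were Psmc6, Psmd12 and Psmd9. RefSeq windows on GRCm38.p6 were found for 38 of 45 members, and 10.2% of 32851 windows hold these letters. The upstream stretches of Psmb5 (chr14:54618023-54618245, minus strand) and Psmb6 (chr11:70525107-70525356, plus strand) are shown 5′ to 3′ because these are the standard catalytic genes with a match, which is in capitals. A match is not a bound site.
Psmb5: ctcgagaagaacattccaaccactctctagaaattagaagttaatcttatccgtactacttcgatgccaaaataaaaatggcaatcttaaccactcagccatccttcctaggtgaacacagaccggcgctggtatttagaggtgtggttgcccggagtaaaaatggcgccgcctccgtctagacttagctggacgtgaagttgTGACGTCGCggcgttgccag
Psmb6: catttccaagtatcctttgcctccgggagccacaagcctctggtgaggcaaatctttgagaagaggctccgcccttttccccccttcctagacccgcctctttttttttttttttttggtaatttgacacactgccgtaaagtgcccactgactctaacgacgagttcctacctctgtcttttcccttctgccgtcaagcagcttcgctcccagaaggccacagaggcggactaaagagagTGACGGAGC
The match begins 47 bases upstream of the RefSeq start in Psmb5 and 9 bases upstream in Psmb6. Of the other letters searched on both strands, CCAAT was in the windows of 15 member genes (33.8% of all windows) and the core of the interferon-stimulated response element in Psmb3, Psmd4 and Psmd9 (2.98% of all windows). TTCNNNGAA, bound by STAT factors, was in the window of Psmb8 (7.02% of all windows).

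Activators outside the regulatory particle fell into a common and a rare group. Psme1 and Psme2, which together form the interferon-inducible cap that opens the core, were each detected in 92.7% of cells, with a mean TPM of 586 and 488. Their mean log2 was 0.95 and 0.76 higher in IG2 than in Multi-Lin-1, below the 1 unit used here, and 0.04 and -0.60 on the log2 of mean TPM. Their rho across the 96 cells was 0.31. Psme3, which encodes the nuclear activator, was detected in 47.9% of cells and Psme4, the activator known from sperm and DNA repair, in 25%. Psme3 was at 24.9 TPM in Multi-Lin-1, 98.1 in IG2, 19.4 in proNeu-1 and 64.3 among cells without a state. Psme4 was detected in 11 of 27 cells without a state and in 5 of 26, 6 of 31 and 2 of 12 of the others.

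The 3 base chaperones among the members differed between IG2 and Multi-Lin-1 on both scales. Psmd5, Psmd9 and Psmd10, which hold base ATPases before the ring closes, were higher in IG2 by 2.11, 1.34 and 1.81 in mean log2 and by 1.58, 3.63 and 1.95 on the log2 of mean TPM. Psmd9 was detected in 3 of 26 Multi-Lin-1 cells and 10 of 31 IG2 cells, so its value rests on few cells. Of 6 genes of core assembly and inhibition outside the 45, 4 were higher by 1 unit and 0 lower, against 31.1% and 2.54% of all genes. Their median was 2.17, or 1.59 on the log2 of mean TPM. Psmg1, Psmg2 and Psmg3, chaperones of core assembly, had mean log2 values of 0.69, 1.52 and 1.49 in Multi-Lin-1 and 4.27, 4.80 and 4.06 in IG2. Psmg1 was detected in 11.5% of Multi-Lin-1 cells and 64.5% of IG2 cells. Pomp, which helps the beta ring to form, was at 6.30 and 8.06 in mean log2 and differed by 0.19 on the log2 of mean TPM, and Psmg4 was lower in IG2, with a difference of -0.39 in mean log2 and a mean TPM of 187 in Multi-Lin-1 and 92.9 in IG2. In proNeu-1 Psmg1 was at 4.73 and Psmg3 at 4.58.

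Other genes of the pathway were set against the same background for the same 2 states, in which 31.1% of all genes were higher in IG2 by 1 unit and 2.54% lower, with a median of 0.53. Their counts lay near it, and nothing particular to these lists is read from them. Of 7 further 26S components in the filter, 2 were higher by 1 unit in IG2 and 0 lower, namely the deubiquitinases Uchl5 (2.92) and Usp14 (1.95). The rest ran from -0.36 for Zfand5 to 0.96 for AI314180. Shfm1 was at 0.89 and Adrm1 at 0.58, or 0.07 and -0.77 on the log2 of mean TPM. Of 12 genes of ubiquitin and its shuttles 4 were higher and 0 lower. Ubb, a ubiquitin gene, was detected in all 96 cells at a mean log2 of 12.97 in Multi-Lin-1, 13.08 in IG2, 12.90 in proNeu-1 and 13.14 among cells without a state. Of 8 genes that regulate proteasome transcription 3 were higher and 0 lower, and Nfe2l1, the factor of the proteasome recovery response, was at 0.83 in Multi-Lin-1 and 1.96 in IG2. Of 10 housekeeping genes 4 were higher and 0 lower, with a median of 0.58.

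Genes of class I presentation and of interferon were examined because they share regulators with the immunoproteasome. Of 10 class I genes 4 were higher in IG2 by 1 unit and 0 lower, near the 31.1% and 2.54% of all genes. These were Tapbp (3.18), Pdia3 (2.50), Calr (1.597) and Erap1 (1.04), which act in peptide loading and trimming, whereas the class I light chain B2m was at 11.44 in Multi-Lin-1 and 11.06 in IG2. Of 12 interferon response genes 8 were detected in under 10% of cells, Ifit3 and Mx1 in none, and of the other 4 none was past 1 unit between these states. Psmb8 was detected in 92.7% of the same cells. Across cells the rho of Psmb8 was 0.02 with Irf1, -0.03 with Tap1 and 0.20 with B2m. Within the 31 IG2 cells it was -0.59 with Irf1 and -0.55 with H2-K1, against -0.10 with H2-K1 across all cells. With Tap1 and B2m it was -0.13 and 0.05 within IG2. Within Multi-Lin-1 the sign was the other way for Irf1 (0.17) and H2-K1 (0.16). The rho with Irf1 across all cells was 0.21 for Psmb9 and 0.16 for Psmb10. In sparse values these are descriptions only.

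Proteasome genes varied together weakly from cell to cell. Over 561 pairs of 26S genes the median rho across the 96 cells was 0.18, and 93.8% of pairs were above 0. For pairs of all genes detected in at least 10% of cells the median was 0.05, with 66.4% of pairs above 0. For those in at least 50% of cells it was 0.07, with 70.3% above 0. Pairs within the regulatory particle had a median of 0.21, pairs within the core 0.14 and pairs across them 0.17. The highest were Psmb4 with Psmc1 (0.49), Psma4 with Psmc4 (0.48) and Psmd3 with Psmd8 (0.45), so no pair was close. The values of a cell share its library and depth. After regression on genes detected the median was 0.06 for 26S pairs, 0.03 for genes in at least 10% of cells and 0.01 for those in at least 50%. The shares of pairs above 0 were then 71.8%, 60.1% and 52.5%. In the same order the medians were 0.03, 0.02 and 0.02 within IG2 and 0.15, 0.02 and 0.05 within Multi-Lin-1. Within proNeu-1 they were 0.0106, 0.0125 and 0.0140, so the 26S median was the lowest there. Among cells without a state they were 0.16, 0.03 and 0.07. Within IG2, 56.7% of 26S pairs were above 0, and 53.6% of pairs of genes in at least 50% of cells. These are descriptions of sparse values.

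The genes most like the proteasome were ranked by rho with the mean log2 of the 26S genes over the 96 cells, among 2235 genes detected in at least 50% of cells and outside the members. The median of these genes was 0.25. The highest were Hmgn2 (0.65), a nucleosome binding protein, the granule genes Prtn3 (0.65) and Mpo (0.62), Lman2 (0.63), Kpna2 (0.61), Vimp (0.60), Smc1a (0.60), Pold2 (0.60), Dut (0.60) and Sdf2l1 (0.59). Mpo and Prtn3 mark the difference between the states themselves, and within states their rho with the 26S mean ran from 0.03 to 0.34 and from -0.04 to 0.36. Hmgn2 stayed at 0.46 after regression on genes detected, and Mpo was at 0.13. The lowest were the nuclear RNA Malat1 (-0.60), Myh9 (-0.59), Rn4.5s (-0.55), Smco1 (-0.48) and Notch2 (-0.45). Malat1 was at -0.46 after the regression and Myh9 at -0.07.

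By median PSI most splice choices of the members used a single form, as did most of those of all genes. The deposited percent spliced in (PSI, the fraction from 0 to 1 of reads at a splice choice that use 1 of its junctions) was available for 342 events of 38 member genes in at least 10 cells. Of these, 2 (0.585%) had a median between 0.1 and 0.9, against 512 of 34937 events of all genes (1.47%). Of 101 junctions into retained introns, 98 had a median PSI of 0, as did 9001 of 9235 such junctions of all genes. PSI comes without read counts, so its precision in a cell is unknown.

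The 2 intermediate events are the sides of 1 choice in Psmd4, the ubiquitin receptor. On chromosome 3, minus strand, an exon that begins at 95034026 ends at 95033918 in a shorter form and at 95033909 in a longer form, and both join the exon at 95033764. The 9 extra bases lie in coding sequence and keep the reading frame. The joined exon sequences are shown 5′ to 3′ from the GRCm38 genome and GENCODE transcripts, because this is the only event of the members with a median between these bounds, and the capitals mark the 9 bases.
Psmd4 longer form: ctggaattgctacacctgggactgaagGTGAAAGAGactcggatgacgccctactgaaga
Psmd4 shorter form: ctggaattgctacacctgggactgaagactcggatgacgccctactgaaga
The PSI of the longer form was 0.431 ± 0.415 (mean ± SD over 49 cells with a value), with a median of 0.412. It was 1 in 10 cells, 0 in 15 and between these in 24. By state the mean was 0.519 in Multi-Lin-1 (10 cells), 0.480 in IG2 (20 cells), 0.342 in proNeu-1 (7 cells) and 0.329 among cells without a state (12 cells), and values from 0 to 1 occurred in each. The differences between these means were smaller than the SD over cells, which is the spread of single cells. The medians lay further apart, at 0.635, 0.518, 0 and 0.0566 in the same order. Within label number 078 the mean was 0.375 and within 079 it was 0.486.

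**Figure D5:**
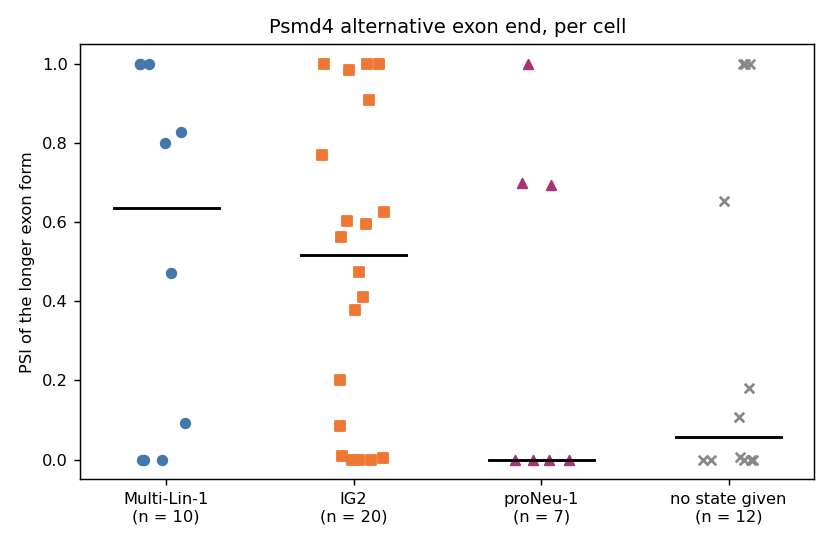
PSI of the longer Psmd4 exon form in each of the 49 cells with a value, by state, with a black bar at the median of each set. Each set spreads from 0 to 1, and 24 of the 49 cells lie between.

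A few other events, chosen after their values were seen, departed from a single form on average. In Psma3 the first acceptor of a pair 5 bases apart had a mean PSI of 0.944 over 80 cells and was at 1 in 60 of them. In Psmb9 the junction from the upstream one of a pair of donors in the first exon (34187250) to the second exon had a mean PSI of 0.737 over 42 cells, 0.417 in Multi-Lin-1 (7 cells) and 0.811 in IG2 (19 cells), with SDs of 0.436 and 0.329. The other donor of the pair had a mean PSI of 0.0810 over 42 cells, so the 2 do not sum to 1. A later Psmb9 junction, against retention of its intron, had a mean PSI of 0.905 over 45 cells, 0.834 in Multi-Lin-1 (9 cells) and 0.996 in IG2 (18 cells). Psmd10 used its longer exon end with a mean PSI of 0.898 over 27 cells.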

How the data were processed

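Single-cell RNA was measured in 96 ThPOK-/- GMP. Expression was deposited by the authors as log2 values of RSEM TPM, and since 2 raised to each value less 1 sums to 1e+06 in every cell, they were read as log2(TPM + 1). Splicing was deposited by the authors as a fraction (PSI). The submitters' processing notes name Bowtie2, RSEM, STAR, mm9 and mm10 without versions or roles. Splicing columns (1142) and state entries (511) of cells that no label maps were not used, nor the column of PSI differences. TPM keeps no depth. Reads are PCR copies without molecular identifiers.

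Genes detected in at least 10% of cells (8044) entered comparisons of states, with differences past 1 log2 unit counted and no test made. Relations are Spearman's rho. Settings tried were detection at 5 and 30 TPM, log2(TPM + 10), no filter, log2 of mean TPM, each label number, cells with at least 2500 genes, regression on genes detected, Pearson's r, rho within states and PSI in at least 30 cells. Named genes are the members, the lists, the 10 genes of highest and 5 of lowest rho with the 26S mean, and events of median PSI from 0.1 to 0.9. Members and lists were chosen with earlier results of these data known. Doublets were not called, for want of counts. The highest Pearson r between 2 cells was 0.685 and no pair was identical. Clopper-Pearson intervals are at 95%. Splicing coordinates match exon ends of GRCm38 (mm10). NumPy 2.4.6, SciPy 1.17.1, pandas 2.3.3 and matplotlib 3.10.9 were used under Python 3.11.15, and the scripts were tested on simulated data.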

Additional observations from a re-analysis of the deposited data

How the results depend on the processing

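Of 98 values recomputed under other settings, 80 were labelled as within the bounds used, 17 as moved and 1 as turned. The bounds were wide, and some values labelled as within them changed sign. The log2 ratio of immunoproteasome to standard sums went from 0.51 to -0.05 in Multi-Lin-1 cells with at least 2500 genes. In IG2 it went from 0.06 to -0.34 within 079. The 26S median of proNeu-1 minus IG2 went from 0.18 to -0.24 after regression on genes detected. The labels thus do not show a stable sign. For IG2 against Multi-Lin-1 the 34 higher members became 21 with log2(TPM + 10), 9 on the log2 of mean TPM and 5 after regression on genes detected, where the 26S median went from 1.75 to 0.15. For proNeu-1 against Multi-Lin-1 the 32 higher members became 7 on the log2 of mean TPM, with the median at 0.0761 in place of 1.95, and 3 after the regression, where the median turned to -0.14. For proNeu-1 against IG2 the 6 members past 1 unit became 3 with log2(TPM + 10), 16 in cells numbered 078 and 15 in those numbered 079. For cells without a state the 14 lower members became 7 with log2(TPM + 10), 6 on the log2 of mean TPM and 22 in cells numbered 078. With detection at 30 TPM, 26S genes in at least 50% of cells went from 29 to 19 in Multi-Lin-1 and from 25 to 14 in cells without a state. The median rho of 0.18 became 0.0612 after the regression and 0.0278 within IG2. The cause of these shifts was not tested. No paired analysis was possible because the labels give 1 group and no animal. Depth per cell is unknown, and 12 cells in proNeu-1 limit its means.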
